A study of Mus musculus with 2 samples.

Results

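The axoneme, the microtubule core of the sperm tail, was examined through 32 genes, of 23234 in the deposited table, that encode axonemal dynein chains, tektins, radial spoke proteins and a few proteins of the central pair and nexin link. They were matched by symbol (Dnahc, Dnaic, Dnali, Dnal or Dnalc, Dnaaf, Tekt and Rsph followed by a digit), and no symbol of the Dnaaf form was matched. Hydin, Spef1, Spef2, Gas8 and Ak7 were added by name. The set and the comparison lists below were chosen with earlier results of these data known. The RNA came from round spermatids, the haploid germ cells in which the tail begins to grow, of C57BL/6 mice, and was total RNA sequenced as directional libraries. A single library was from wild-type mice. The other, labelled Epc-dKO, was from mice described as deficient for the genes Epc1 and Epc2, which code for subunits of the histone acetyltransferase complex NuA4/TIP60. The sources used here do not give the alleles, any Cre driver, the ages or the number of animals behind each library. No difference below is checked by a second library of the same genotype, and none has a p-value.

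In a motile axoneme, outer and inner rows of dynein arms, fixed to a ring of doublet microtubules, slide neighbouring doublets against each other. The nexin link, the radial spokes and the central pair turn sliding into bending and set its rhythm, while tektins are filaments that lie along the doublets. Several of these parts exist as paralogs, of which some are known from sperm and others from cilia of the airway and brain ventricles.

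Values are FPKM, fragments scaled by transcript length and by the mapped fragments of each library, so levels can be set side by side between genes. The read depth is unknown and no counting interval can be given. The difference between libraries is given on the log2 scale, as FPKM + 1 of the library labelled Epc-dKO divided by FPKM + 1 of wild type. This scale understates the change of low genes. A gene was called expressed at a mean FPKM of 1 or more and was counted as higher or lower only at a difference of 2-fold or more. All members were listed above 0 in both libraries, 28 were expressed, and 4 lay under the minimum.

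As regulatory background, the bases just before the start of the genes were read from the RefSeq promoter table (GRCm38.p6), which held 30 of the 32 members (all but Rsph1 and Rsph4a), matched through current symbols such as Dnah6 for Dnahc6. The X-box is the known binding motif of RFX factors, the regulators of ciliary genes, and is made of 2 half-sites of 6 bases that are separated by 1 to 3 bases. The sequences below are the last 60 bases before an annotated start, 5′ to 3′ on the strand of the gene, with X-box matches in capitals. They are shown because the first 8 share almost the same palindrome close to the start in genes of different parts of the axoneme.
Dnahc6 (chr6:73221632-73221691, minus strand): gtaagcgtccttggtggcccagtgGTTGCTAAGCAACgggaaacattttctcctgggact
Dnahc7a (chr1:53706785-53706844, minus strand): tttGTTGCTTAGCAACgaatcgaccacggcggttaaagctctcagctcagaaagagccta
Dnahc7b (chr1:46066793-46066852, plus strand): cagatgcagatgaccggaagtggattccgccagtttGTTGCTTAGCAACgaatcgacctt
Dnaic1 (chr4:41569734-41569793, plus strand): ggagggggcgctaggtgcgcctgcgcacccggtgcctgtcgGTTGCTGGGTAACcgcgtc
Dnaic2 (chr11:114727359-114727418, plus strand): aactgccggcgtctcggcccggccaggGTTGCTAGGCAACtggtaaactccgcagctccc
Hydin (chr8:110266917-110266976, plus strand): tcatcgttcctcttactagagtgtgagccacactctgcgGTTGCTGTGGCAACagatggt
Tekt2 (chr4:126325689-126325748, minus strand, first of 3 starts): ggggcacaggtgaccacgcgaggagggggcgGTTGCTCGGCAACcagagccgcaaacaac
Tekt4 (chr17:25471530-25471589, plus strand): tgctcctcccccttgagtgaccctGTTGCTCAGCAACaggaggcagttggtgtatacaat
Dnahc8 (chr17:30626876-30626935, plus strand): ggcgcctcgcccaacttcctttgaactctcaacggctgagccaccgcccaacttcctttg
Dnahc17 (chr11:118129220-118129279, minus strand): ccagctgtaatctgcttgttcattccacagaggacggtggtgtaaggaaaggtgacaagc
Rsph6a (chr7:19054627-19054686, plus strand): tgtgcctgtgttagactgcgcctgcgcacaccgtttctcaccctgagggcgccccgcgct
The last 3, from the most abundant heavy chains and a spoke head gene of the testis, are shown as windows without an X-box match. Farther upstream, Dnahc8 had a match from 159 to 147 bases before the start. Dnahc17 and Rsph6a had none within the 250 bases before the start. For the Rsph6a window and the printed Tekt2 window, the bases after the start were not found in a GENCODE M21 transcript of the gene, and the Tekt2 start that was found there had no X-box match.

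On either strand, an X-box match lay within the last 60 bases in 12 of the 30 members (40%), against 8.09% of all 27025 genes in the promoter table and 9.35% of the 8100 expressed genes found there. One of the 12, Dnahc5, was not expressed. Over all 250 bases before the start, 19 of the 30 members (63.3%) held a match, against 32.7% of all genes and 34.5% of the expressed genes. Of the 27 expressed members with a promoter, 17 did (63.0%). The stricter letters GTTGCNNNGCAAC, written after the member sequences had been seen and overlapping the X-box pattern, occurred within the 250 bases in 6 of the 30, namely Dnahc6, Dnahc7a, Dnahc7b, Dnaic2, Tekt2 and Tekt4, against 63 of all genes (0.233%). Among the 8100 expressed genes, 43 held the stricter letters (0.531%). Over the 27 members with a start found in GENCODE, counting those starts alone, 10 had an X-box match in the last 60 bases. Of these 27 members, 5 held the stricter letters. Dnahc7a and Dnahc7b are close paralogs with similar promoters and are not independent examples. A cAMP response core, TGACGT, was found in 2 of the 30 (6.67%), Dnahc6 and Tekt1, against 7.29% of all genes and 11.8% of the expressed genes. These are letter matches, and no binding was measured.

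Levels spanned a wide range within the set. Dnahc8 alone supplied 25.7% of the summed FPKM of the 32 genes in wild type and 25.9% in the other library. The whole set summed to 2656 FPKM in wild type and 2591 in the other library, which was 1.37% and 1.31% of all FPKM. In each library 14 members stood in the top 10% of expressed genes. The plot of levels by gene shows both libraries for every member.

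**Figure D1:**
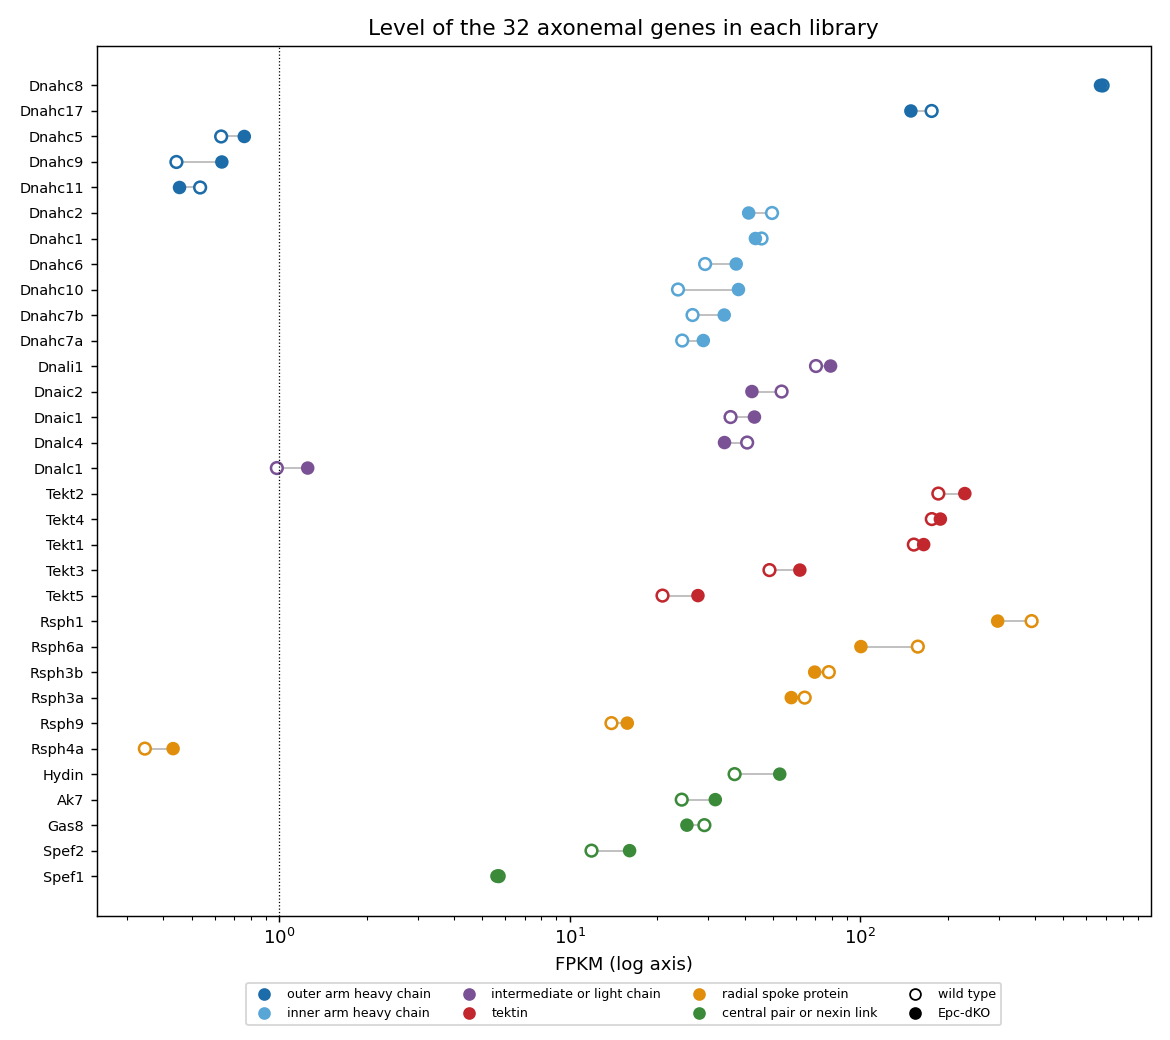
FPKM of the 32 genes (log axis), 1 line per gene, coloured by role, with the wild-type library as open circles and the library labelled Epc-dKO as filled circles; the dotted line marks an FPKM of 1. Dnahc8 lies at 682 and 671, and Dnahc5, Dnahc9, Dnahc11 and Rsph4a lie under the dotted line in both libraries.

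None of the 28 expressed members was 2-fold higher or lower. Over all 10438 expressed genes, 2.75% passed the rule as higher and 1.88% as lower in Epc-dKO, so that 4.63% passed in either direction; at a mean FPKM of 10 or more, which 26 members reached, the share was 4.96%. At 1.5-fold, 1 member was higher (Dnahc10) and 1 lower (Rsph6a), against 8.02% and 10.8% of expressed genes. The member log2 ratios ran from -0.65 to 0.67 with a median of 0.14, and 16 lay above 0 and 12 below. The median of all expressed genes was -0.05, and 45.6% of them lay above 0.

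**Figure D2:**
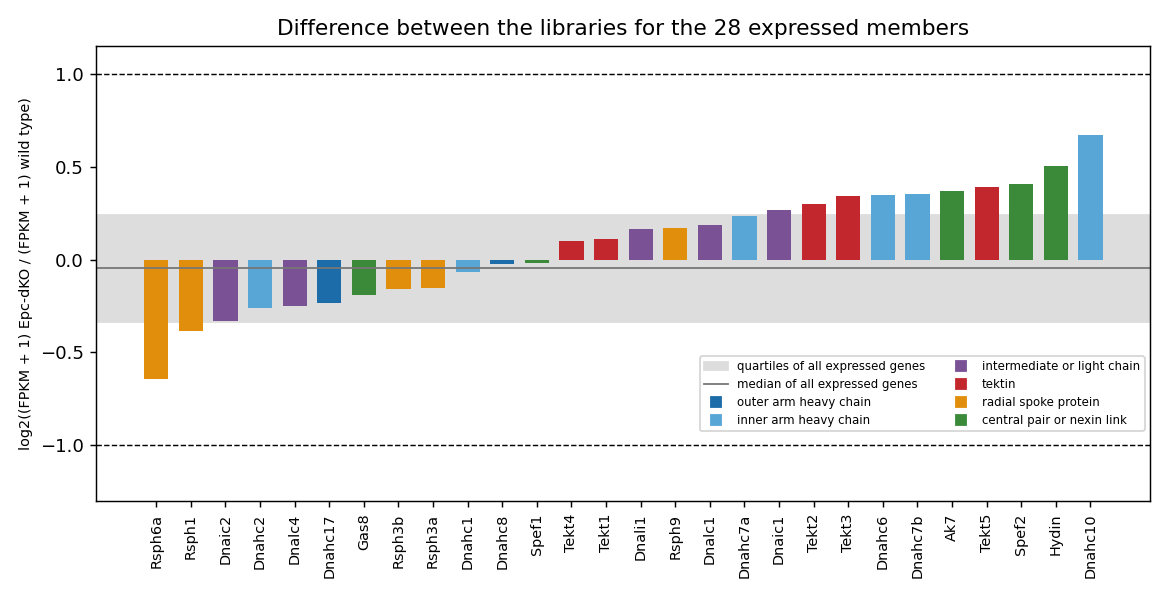
Log2 ratio of (FPKM + 1), Epc-dKO over wild type, for the 28 expressed members in rising order and coloured by role; the grey band gives the quartiles of all expressed genes, the grey line their median of -0.05, and the dashed lines the 2-fold rule. All bars stay inside the dashed lines, with Rsph6a at -0.65 and Dnahc10 at 0.67 at the ends.

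Outer arm heavy chains, the ATP-driven motors that give most of the power of the beat, fell into a high and a low class. Dnahc8, the sperm-type outer arm motor, had an FPKM of 682 in wild type and 671 in the library labelled Epc-dKO (log2 ratio -0.02). It ranked number 8 among expressed genes in wild type and number 12 in the other library. Dnahc17, its sperm-type partner in the outer arm, had 176 and 149 (log2 ratio -0.24). Dnahc8 was 3.88 times Dnahc17 in wild type and 4.49 times in the library labelled Epc-dKO. The paralogs known from airway and ventricle cilia were low in both libraries: Dnahc5 had 0.632 in wild type and 0.759 in the library labelled Epc-dKO. Dnahc9 was at 0.443 and 0.635, and Dnahc11 at 0.535 and 0.454. None of these 3 reached the minimum, and they enter no count.

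Inner arm heavy chains, which shape the waveform, were of similar level to each other. In wild type the 6 lay between 23.6 and 49.7, and in the other library between 28.8 and 43.6. Dnahc2 was the highest in wild type with 49.7 and had 41.3 in the library labelled Epc-dKO (log2 ratio -0.26). Dnahc1, whose human counterpart is known for tail defects in infertile men, had 45.7 and 43.6 (-0.07). Dnahc6 had 29.2 and 37.4 (0.34). The lowest in wild type, Dnahc10, a chain of the double-headed inner arm, had 23.6 and 38.1. Its log2 ratio of 0.67 was the highest of the set and stood above 93.8% of expressed genes, still short of the 2-fold rule. Dnahc7a had 24.4 and 28.8 (0.23), and Dnahc7b had 26.5 and 34.0 (0.35). These 2 paralogs share 40.3% and 48.4% of their stretches of 50 bases with transcripts of other genes in GENCODE M21, mainly of the same Dnah7 group, so their separate values are uncertain. The median log2 ratio of the 6 was 0.29, with 4 above 0 and 2 below. Dnahc7a and Dnahc7b are counted separately among the 4.

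Intermediate and light chains link the motors to the doublet and tune them. Dnaic1 and Dnaic2 encode the pair of intermediate chains of the outer arm, and their differences had opposite signs. Dnaic2 had 53.6 in wild type and 42.4 in the library labelled Epc-dKO (log2 ratio -0.33), whereas Dnaic1 had 35.8 and 43.2 (0.27). The level of Dnaic2 over Dnaic1 was 1.498 in wild type and 0.980 in the other library, so the order of the pair changed; with 1 library each, the error of this ratio is not known. Dnali1, a light intermediate chain of the inner arms, had 70.4 and 79.1 (0.16), and the light chain gene Dnalc4 had 40.8 and 34.1 (-0.25). Dnalc1, current symbol Dnal1, for a light chain bound to the outer arm motor, was barely expressed with 0.983 and 1.25 (0.19).

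Tektins were the role in which every member lay above 0. Tekt2, needed for normal tail bending in mice, had 186 in wild type and 229 in the library labelled Epc-dKO (log2 ratio 0.30). Tekt4, known for its part in coordinated tail beating, had 176 and 189 (0.10), and Tekt1 had 153 and 165 (0.11). These 3 abundant tektins formed a tier well above the other 2. Tekt3 had 48.7 and 62.0 (0.34), and Tekt5, a tektin known from sperm tails, had 20.9 and 27.6 (0.39). The sign of all 5 was the same under each rescaling of the libraries that was tried. Tekt2 was 8.90 times Tekt5 in wild type and 8.29 times in the library labelled Epc-dKO. The median log2 ratio of the tektins was 0.30, and none passed 2-fold.

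Radial spokes are T-shaped stalks with a head that faces the central pair. Rsph1, a spoke head gene, was the second most abundant member, with 389 in wild type and 297 in the library labelled Epc-dKO (log2 ratio -0.39). Rsph6a, the spoke head gene known from testis, had 158 and 101. At -0.65 it was the lowest of the set, and 8.69% of expressed genes had a lower ratio. Its airway paralog Rsph4a was under the minimum with 0.345 and 0.432. Rsph9, also of the head, was much lower than Rsph1 with 13.9 and 15.8 (0.17), and the level of Rsph1 over Rsph9 was 27.9 in wild type and 18.8 in the library labelled Epc-dKO. Rsph3a and Rsph3b, for the stalk protein that anchors protein kinase A, had 64.4 and 57.9 (-0.15) and 78.0 and 69.7 (-0.16). They share 74.0% and 75.8% of their stretches of 50 bases with each other, so only their common direction can be read. The spoke genes had 4 of 5 expressed members below 0 and a median of -0.16, with no member past the 2-fold rule. Rsph3a and Rsph3b are counted separately among the 4, and the median is the value of Rsph3b. This count and median were not computed without the pair.

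Genes of the central pair and nexin link were below the abundant spokes and tektins in level. Hydin, a very large central pair protein whose loss in mice causes hydrocephalus, had 36.9 in wild type and 52.8 in the library labelled Epc-dKO (log2 ratio 0.50, above 89.7% of expressed genes). Spef2, a central pair protein needed for tail formation, had 11.9 and 16.1 (0.41), and Ak7, an axonemal adenylate kinase, had 24.3 and 31.7 (0.37). The microtubule-bundling protein gene Spef1 was nearly equal, with 5.70 and 5.62 (-0.02). Gas8, for a nexin link subunit, had 29.1 and 25.3 (-0.19). The median of the 5 was 0.37.

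Transcript base composition moved with the difference between libraries. Over the 28 expressed members Pearson's r between log2 ratio and GC content of the longest GENCODE M21 transcript was -0.51 and Spearman's coefficient -0.49; the genes share 2 libraries and are not independent replicates. Of the 7 members with GC under 50%, 6 lay above 0, with a median of 0.34. Of the 21 others, 10 did, with a median of -0.02. Among all expressed genes with GC under 50%, 2969 of 5433 lay above 0, with a median of 0.05. Among those with 50% or more, 1732 of 4868 did, with a median of -0.15. Over all expressed genes with an entry the coefficients were -0.16 and -0.24, and the median log2 ratio was 0.09 in the decile of genes with the lowest GC content and -0.24 in the decile with the highest. The part of GC content in the member differences was not tested. Transcript length went with the member ratios less closely (Pearson's r of 0.22, Spearman's coefficient 0.20).

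**Figure D3:**
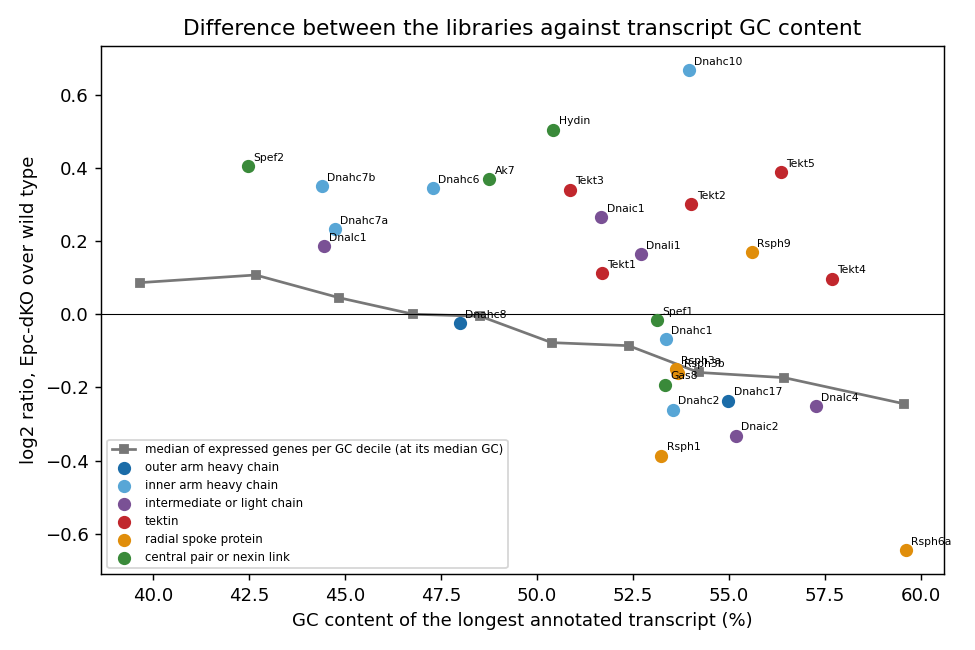
Log2 ratio, Epc-dKO over wild type, against GC content of the longest annotated transcript for the 28 expressed members, coloured by role; grey squares give the median of expressed genes in each decile of GC content. Rsph6a has the highest GC content (59.6%) and the lowest ratio (-0.65), and all 5 tektins lie above the grey line.

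When the median of expressed genes of the same GC decile was taken off, an alternative chosen after seeing the data, the tektins had a median of 0.42 and the inner arm heavy chains 0.25. The radial spoke genes moved to -0.00, with Rsph6a at -0.40 and Rsph1 at -0.30. Dnahc10 was at 0.83 and Hydin at 0.58. Of the 28, 19 lay above 0 on this scale (67.9%), against 50% of expressed genes, and none reached 2-fold.

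The neighbouring genes of the axoneme, listed by complex, also lay mostly above 0. Of 79 expressed genes in 6 such lists, 2 were 2-fold higher and 0 lower, against 2.75% and 1.88% of all expressed genes. The median was 0.17, and 60 of the 79 lay above 0, against 45.6% of all expressed genes. Tctex1d1, a dynein light chain family gene, rose from 0.846 to 3.76 (log2 ratio 1.37), and Ccdc42b, a coiled-coil gene, rose from 6.28 to 16.2 (1.24). Both are low genes beside the abundant members of their lists, Tcte3 (177 and 130) and Ccdc63 (82.0 and 86.6) among the other arm and docking genes, and Zmynd10 (146 and 139) and Spag1 (33.4 and 42.2) among the arm assembly factors. The medians of these lists were 0.20 and 0.10.

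The nexin-dynein regulatory complex list had 0 of 11 past the rule and a median of 0.16, led by Ccdc65 (161 and 208) and Tcte1 (124 and 92.8). The other radial spoke genes had 0 of 14 past it with the pseudocount of 1, but Dydc2, at 0.626 and 1.83 (log2 ratio 0.80), passed with pseudocounts of 0.5 and 0.1 (1.05 and 1.41). Of these genes 13 of 14 lay above 0, with a median of 0.27. Of the 5 expressed Rsph genes, counting the near-identical Rsph3a and Rsph3b separately, 1 did. The most abundant of the 14 other spoke genes were 1700003M02Rik, listed as Cfap206 (325 and 327), and Ropn1l (133 and 96.3). The 14 genes had a median GC content of 47.5%, against 53.7% for the expressed Rsph genes. With the GC decile median taken off, 13 of the 14 lay above 0, with a median of 0.34. On that scale 2 of the 5 expressed Rsph genes did, with a median of -0.0007. The part of GC content in the difference between these lists was not tested. The other central apparatus genes had 0 of 12 past the rule and a median of 0.27, with Kif9 at 97.2 and 123 and Spag17 at 76.2 and 99.4. The other microtubule inner proteins had 0 of 18 and a median of 0.14, with Mns1 at 155 and 198 and Ccdc19 at 143 and 156.

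**Figure D4:**
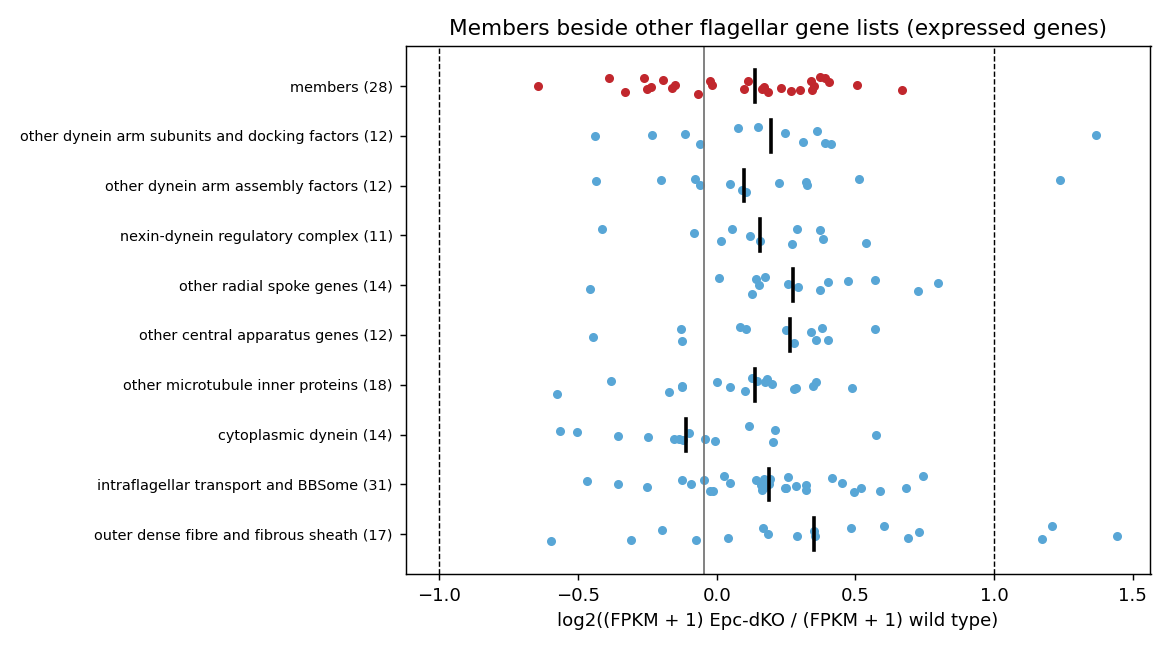
Log2 ratio, Epc-dKO over wild type, of each expressed gene in the member set (red) and in 9 other lists (blue), with the number of genes in brackets, black bars at list medians, a grey line at the median of all expressed genes (-0.05) and dashed lines at 2-fold. The members have a median of 0.14 and none past 2-fold; 3 genes of the outer dense fibre and fibrous sheath list lie past it.

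Other sets of tail genes are given for comparison. Intraflagellar transport and BBSome genes, which carry parts into a growing cilium, had 0 of 31 past 2-fold and a median of 0.19. Over all expressed genes 4.63% passed 2-fold in either direction. The outer dense fibre and fibrous sheath list, of structures laid around the axoneme later in tail growth, had a median of 0.35. In this list 3 of 17 were 2-fold higher, against 2.75% of all expressed genes. These were Akap4, Spata18 and Txndc2, with log2 ratios of 1.17, 1.44 and 1.21. Odf2 (904 and 1014) and Tcp11 (665 and 755) were the most abundant genes of the list. No test of the difference between lists can be made with 1 library per genotype.

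The cell label was checked against marker lists. All 12 round spermatid markers were expressed in both, with a median of 1.22, but they did not move as a block. Of these, 7 passed the rule as higher in Epc-dKO (Prm1, Prm2, Tnp1, Tnp2, Spem1, Lelp1 and Tssk6), against 2.75% of all expressed genes. Prm2 rose most, from 82.8 to 675 (log2 ratio 3.01). The rest did not pass: Catsper1 (0.47), Izumo1 (0.33), Acr (0.16), Acrv1 (0.04) and Spaca1 (-0.42). For 10 spermatocyte markers the median was -0.02. The 9 expressed spermatogonial markers had a median of -0.75 and summed, over all 10 listed, to 37.1 FPKM in wild type and 17.3 in the library labelled Epc-dKO. Sums of the Sertoli, peritubular, Leydig and blood, immune and endothelial lists were lower too, given here for wild type and then Epc-dKO. Sertoli markers summed to 10.9 and 6.89, with Clu (8.29 and 5.03) as the only expressed gene. Peritubular markers summed to 11.4 and 6.54 (median of 3 expressed -0.58). Leydig markers summed to 31.0 and 24.1, with Insl3 (14.9 and 6.79) past the rule (-1.03). Of the 6 expressed Leydig markers, 3 lay above 0 and 3 below, with a median of -0.01. Blood, immune and endothelial markers summed to 4.30 and 3.74. Of 10 markers of multiciliated duct epithelium 4 were expressed; the 10 summed to 94.0 and 94.1, mostly from Foxj1 (55.8 and 44.5) and Ccdc67 (32.4 and 44.9). The epithelial genes Epcam (3.79 and 2.80) and Krt8 (1.18 and 1.05) were the other two expressed, while Scgb1a1 was listed at 0 in both and Pax8, Cldn4 and Cdhr3 were under 0.05. Fewer cells of a type and less RNA per cell cannot be told apart in these libraries, and the part of cell makeup in the member differences was not tested. The targeted genes were no lower in Epc-dKO (Epc1 at 11.4 and 13.6, Epc2 at 7.12 and 10.5). A gene-level FPKM can include exons outside a deleted part, but the alleles are not given and this was not tested.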

How the data were processed

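RNA-seq values of 2 round spermatid libraries, grouped by their genotype labels, were used. The authors deposited FPKM per gene in 1 table; Cufflinks 2.2.1 and mm9 are named per the submitters' processing notes, while the aligner, annotation, strand setting and scaling between libraries are not stated there or in the labels. Libraries were directional and amplified by PCR, per the labels' protocols. A row of library codes was left out. The members and lists were chosen with earlier results of these data known. The naming rule took all expressed members, and from other lists the 2 most abundant genes and those past 2-fold. Rfx1 and Crem were named outside this rule. Marker lists are given by sums and by genes chosen after their values were seen. Transcript length, GC content and shared 50-base stretches came from GENCODE M21 (GRCm38) by symbol or RefSeq synonym, for 98.7% of expressed genes. Promoters came from RefSeq (GRCm38.p6); for 27 of the 33 member promoters, the bases after the start occurred in a GENCODE transcript of the gene. The ratio, the fold rule and the rescalings were tested on simulated data. Alternatives covered pseudocount, minimum, scaling, fold, paralogs and GC content. Python 3.11.15, NumPy 2.4.6, pandas 2.3.3 and Matplotlib 3.10.9 were used.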

Additional observations from a re-analysis of the deposited data

How the results depend on the processing

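No expressed member passed 2-fold under any of the alternatives tried for single genes (pseudocounts of 0.1 and 0.5, no minimum, a minimum of 5, 4 rescalings, and the GC decile median taken off), in 251 of 251 comparisons, with log2 ratios between -0.69 and 0.83. Under the 1.5-fold rule 1 member was higher and 1 lower. The median of the members stayed between 0.09 and 0.19, also without the 4 near-identical paralogs. The median of outer arm heavy chains was -0.0242 without a minimum, which adds 3 low genes, and that of intermediate and light chains was -0.0437 at a minimum of 5, which drops Dnalc1. With the GC decile median taken off, tektins stood at 0.42 and radial spokes at -0.000700. For the other lists, pseudocounts were tried after seeing the data: with 0.1, Dydc2 and Rfx3 were added as higher, and spermatogonial markers past the rule went from 2 to 6 (4 with 0.5). Single signs changed for Dnahc8 and Spef1 when libraries were scaled to a median ratio of 1, and for Dnahc1, Rsph3a and Spef1 with GC taken off. No paired analysis was possible because neither genotype has a replicate. Since the depth is unknown, the 4 genes under the minimum carry no statement on direction.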

Other observations

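Cytoplasmic dynein, the motor that carries cargo along microtubules inside the cell, was measured beside its axonemal relatives. Of 14 expressed genes 0 passed 2-fold, 10 lay below 0, and the median log2 ratio was -0.11. Of all 10438 expressed genes, 4.63% passed 2-fold in either direction and 5677 lay below 0. Dync1h1, the heavy chain of the main cytoplasmic motor, had an FPKM of 178 in wild type and 164 in the library labelled Epc-dKO, close to the level of Dnahc17 in both. Wdr60, of the dynein that works inside cilia, had 37.0 and 55.5.

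Transcription factors known for ciliary genes were present. With the pseudocount of 1 none of the 9 passed 2-fold, against 4.63% of all expressed genes, and their median was -0.01. Rfx2, an RFX factor needed for spermatid maturation in mice, was the most abundant with 184 and 195, followed by Sox30 with 85.9 and 85.3. Rfx1 had 63.9 and 63.2. Rfx3 was low with 3.19 and 6.78, an FPKM ratio of 2.12; its log2 ratio was 0.89 with the pseudocount of 1 and 1.06, past the rule, with 0.1. Crem, a master regulator of spermiogenesis, had 14.6 and 24.5 (0.71).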
